A study of Rattus norvegicus with 20 samples.

Results

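Celecoxib at reference concentration 1/5 for 24 h was compared with no treatment in cultures of primary cells from newborn rat hearts, using RNA levels on single-colour oligonucleotide arrays. The arrays were chosen by their labels: 3 of celecoxib 1/5 at 24 h and 2 that were not treated, which is 5 of the 20 arrays of the series. Cells from heart tissue had grown in DMEM for 1 day before the drug was added. The absolute concentration behind the value of 1/5, and any vehicle or collection time of the untreated cultures, are not given in the sources used here. Celecoxib at concentrations 1 and 1/25 for 24 h (3 arrays each) entered the same fit and is used to ask whether the concentration matters. No label says that the replicates came from separate cultures or animals, so p-values measure only how far these samples spread, and that spread may be technical.

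Celecoxib is a selective inhibitor of cyclo-oxygenase 2, the inducible enzyme, encoded by Ptgs2, that turns arachidonic acid into the precursor of the prostaglandins. In the heart, prostaglandin E2 and prostacyclin act on receptors of muscle, vessel and immune cells. Cultures of neonatal heart hold cardiomyocytes together with fibroblasts and smaller numbers of endothelial cells and macrophages. Array signal is total RNA of all of them, so that fewer cells of a type and less RNA per cell cannot be told apart.

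All values below are levels on 1 scale: log2 of the processed signal minus log2 of the 75th percentile of that array. A difference of 1 is 2-fold, and levels of different probes are not comparable. On the 3 celecoxib arrays 63.5% to 79.7% of probes were well above background, against 82.5% and 66.1% on untreated replicates 1 and 2. Untreated replicate 1 stood apart: its mean correlation with the other 10 arrays of the fit was 0.904, against 0.94 for untreated replicate 2 and 0.945 to 0.959 for the celecoxib arrays, across genes, which are not independent. Every array was scanned on the same day, but the untreated arrays lay on 1 slide and the celecoxib 1/5 arrays on 2 others, so slide and treatment cannot be told apart. Of 19 tested cardiomyocyte markers 18 were well above background on all 5 arrays, as were 21566 of the 25259 genes not called below. A gene was tested only if every array of 1 or more groups put it well above background. The markers therefore do not test the cardiac label.

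In limma, 464 of 25723 genes (1.8%) passed a Benjamini-Hochberg adjusted p of 0.05, of which 100 (0.389%) were higher and 364 (1.42%) lower with celecoxib. The median log2 change over all genes was 0.01. The celecoxib and untreated arrays did not overlap for any of the 100 and for 362 of the 364, and they did not overlap for 41% of all tested genes. The count rested on single arrays: it was 71, 282 and 86 without celecoxib replicates 1, 2 and 3, and 113 and 2890 without untreated replicates 1 and 2. A set of 37 genes, 9 higher and 28 lower, passed in each of the 5 fits that dropped 1 of these arrays, and 19 of them have a gene symbol. Among these are Gldn, Prkcb, Ctss, Cd83 and Pdcd10 on the higher side, and Neurog2, Med25, Tmod4, Cdk10, Sh2b1 and Cdh10 on the lower side.

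The genes that fell were mostly dim. Their median level was -3.37, against -0.65 for those that rose and -0.93 for genes not called. Of the 364, 169 were well above background on all 5 arrays, against 90 of the 100 that rose. On no celecoxib array were 45 of the 364 well above background. Untreated replicate 1 read above replicate 2 in 69.2% of them, against 47.8% of the genes not called. Among the 8575 genes with the lowest levels the median change was -0.44, with 15 called higher and 271 lower, and among the 8575 with the highest levels it was 0.29, with 38 higher and 10 lower. With quantile normalisation these medians were -0.03 and 0.03, and 47.8% of the calls were lower rather than 78.4%. The part of these array differences in the falls was not tested.

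**Figure D1:**
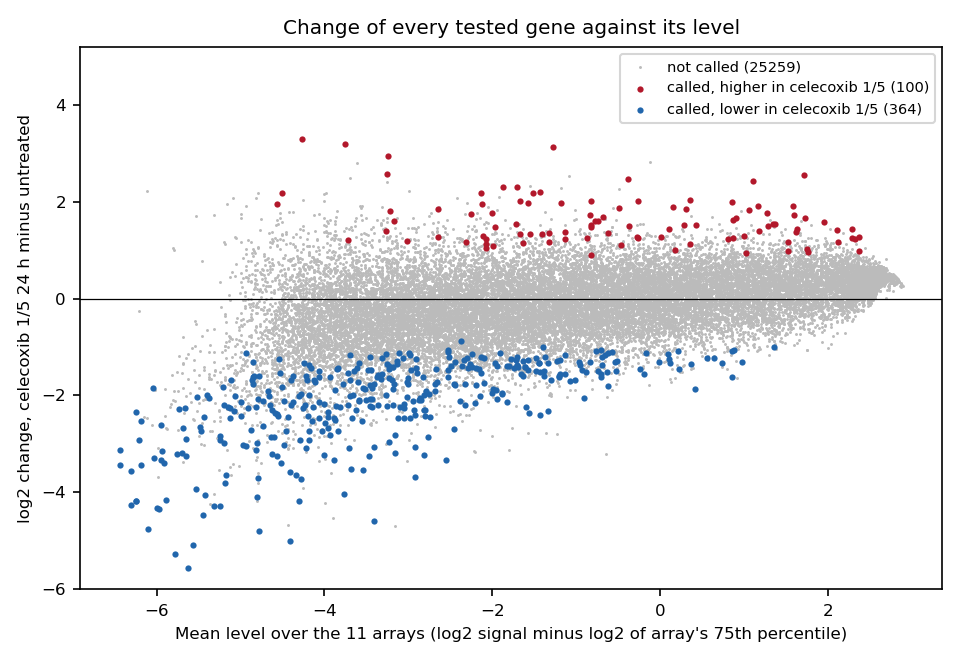
The log2 change (celecoxib 1/5 for 24 h minus untreated) of each tested gene is plotted against its mean level over 11 arrays, with called genes in red (100 higher) and blue (364 lower). The blue points lie mostly at low levels, and the red points are spread over the range.

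Probes of 4 genes that passed in every fit without 1 of the 5 arrays, and of Hs3st1, one of the largest falls, are shown by their first 30 of 60 bases, 5′ to 3′. Their positions are those of the array's own annotation on rat build rn3. The files do not say which part of a transcript each lies in.
Gldn (chr8:57857929-57857988, plus strand): gctggaagttgaaatggataacatctggtg
Ctss (chr2:190429437-190429496, plus strand): ctggcttacagcttgtttgttttataactt
Cd83 (chr17:26708709-26708768, minus strand): cagtgttttgctcttgaaggactaatcaca
Hs3st1 (chr14:76441330-76441389, plus strand): aagctgtctccacagatcaacgcctcgaac
Neurog2 (chr2:224883734-224883793, plus strand): caactccacgtccccatacagctgcacttt

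Gldn encodes gliomedin, an adhesion protein known from the nodes of Ranvier. Its level was -1.08, -0.6 and -0.55 on the celecoxib arrays, against -4.01 and -3.77 on the untreated arrays. The groups were far apart, and the change (3 arrays against 2) was 3.14 ± 0.28 (SE), or 8.83-fold, with adjusted p = 0.00295 in limma. Each SE given here takes its spread from all 11 arrays of the fit, including the other concentrations. It can understate the spread of the untreated arrays where these lie far apart. The change was 3.02 without untreated replicate 1 and 3.26 without replicate 2.

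Prkcb encodes protein kinase C beta, a signalling kinase of immune and other cells. It was not well above background in either untreated array, where it read -4.89 and -4.82, and it read -2.14, -2.47 and -2.23 with celecoxib. Its level with celecoxib was at least 4.83-fold above the lowest signal counted as well above background, and adjusted p was 0.00295 in limma. The gene was kept only through celecoxib arrays, so a rise is partly built in by the filter.

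Genes known from macrophages and other immune cells were among the rises. Ctss, the lysosomal protease cathepsin S, read -0.84, -1.44 and -1.02 with celecoxib, against -3.7 and -3.11 untreated. It rose by 2.30 ± 0.29 (adjusted p = 0.00868, limma), and a further probe of the gene gave 1.85. Cd83, a surface protein of activated antigen-presenting cells, read -1.46, -1.1 and -1.65 with celecoxib, against -3.09 and -3.67 untreated, a rise of 1.98 ± 0.28 (adjusted p = 0.0154, limma).

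Mrc1, the macrophage mannose receptor, read 2.23, 1.93 and 1.8 with celecoxib, against -0.14 and 0.3 untreated, and rose by 1.91 ± 0.31. C5ar1, the receptor of the complement fragment C5a, rose by 1.97 ± 0.38. Mmp12, the macrophage elastase, rose by 1.83 ± 0.29, its celecoxib arrays reading 1.39, 1.33 and 1.3 against -1.05 and 0.06 untreated. Adjusted p in limma was 0.0206, 0.0351 and 0.0187 for Mrc1, C5ar1 and Mmp12. None of these 3 passed without celecoxib replicate 1 (adjusted p = 0.0693, 0.104 and 0.0621, limma) or without celecoxib replicate 3 (0.0539, 0.0916 and 0.0539). Without untreated replicate 1, Mrc1 was at 1.69, C5ar1 at 1.37 and Mmp12 at 1.28.

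Of 20 tested markers of macrophages and leukocytes, 3 rose (Ctss, Cd83 and Mrc1) and none fell. Of all genes 0.389% were called higher and 1.42% lower. The list was chosen with earlier results of these data known. Of the 20, 9 read above 0, against 50.4% of all genes. The median change of the list was -0.07. The defining markers Ptprc (CD45) and Cd68 had changes of -0.05 and 0.32, and the complement genes C1qa, C1qb and C1qc of 0.39, -0.35 and -0.09, none called. Lyz2, lysozyme, (-0.76) and Fcgr3a, an antibody receptor, (-0.65) read lower on all celecoxib arrays than on both untreated arrays, without passing. S100a9, a calcium-binding protein of neutrophils, had the lowest change of the list (-2.16 ± 0.55, adjusted p = 0.0702, limma) and was well above background on 2 of 3 celecoxib arrays. In all, 6 members lay wholly above and 5 wholly below the untreated arrays, against 22% and 19% of all genes. Csf1r, Adgre1 and Itgam were not tested because they were not well above background on every array of any group. The summed signal of the list, in units of the array's 75th percentile, ran from 20 to 22.3 with celecoxib, against 16.9 to 21 untreated. Without untreated replicate 1, 14 members read above 0, the median was 0.27 and 2 rose. Without untreated replicate 2, 7 read above 0, the median was -0.41 and 3 rose.

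**Figure D2:**
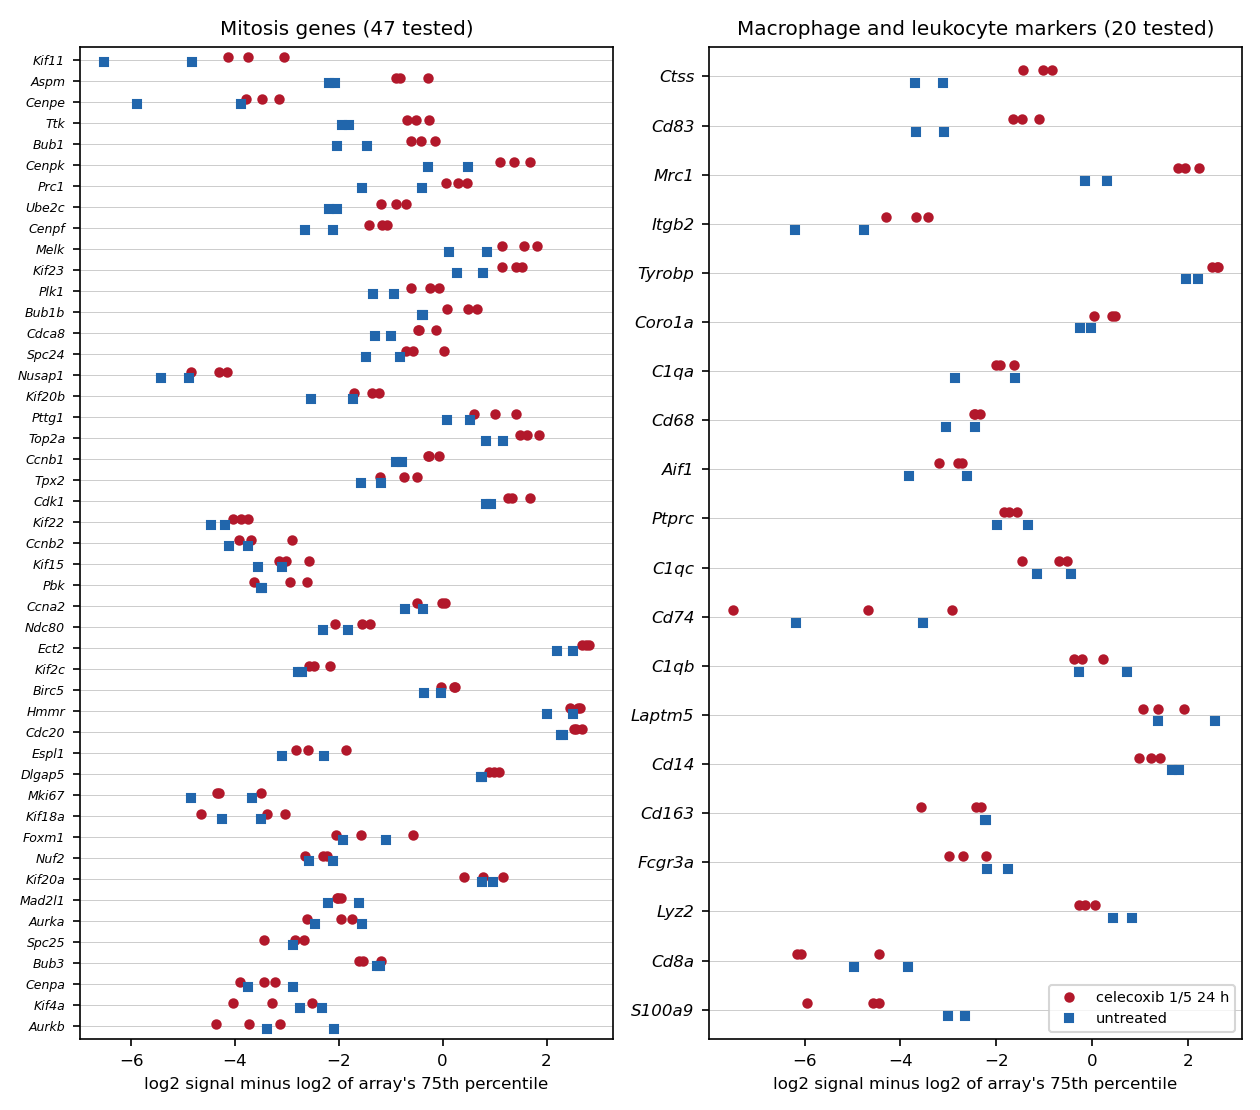
Levels on each array (log2 signal minus log2 of the array's 75th percentile) of the tested mitosis genes and of the macrophage and leukocyte markers, ordered by change. Celecoxib 1/5 for 24 h is in red circles and untreated in blue squares. Mitosis members lie mostly to the right with celecoxib, while the macrophage panel holds members on both sides, with Ctss, Cd83 and Mrc1 at the top and S100a9 at the bottom.

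Genes of mitosis read higher as a group. Of 47 tested, 38 read above 0, with a median change of 0.43. All 3 celecoxib arrays were above both untreated arrays for 26 of them (22% of all genes did so), and all were below for 0. Of the 47, 2 passed the test over all genes, both higher, where 0.389% of all genes were called higher. Ttk, the spindle checkpoint kinase Mps1, read -0.26, -0.69 and -0.52 with celecoxib, against -1.94 and -1.81 untreated, and rose by 1.38 ± 0.25 (adjusted p = 0.0281, limma). Ube2c, the ubiquitin-conjugating enzyme of the anaphase-promoting complex, read -1.19, -0.71 and -0.9 with celecoxib, against -2.03 and -2.19 untreated, and rose by 1.18 ± 0.22 (adjusted p = 0.0313).

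Close to the threshold were Aspm (1.45 ± 0.33, adjusted p = 0.0545 in limma), Cenpk (1.3 ± 0.30, 0.0571), Kif11 (2.03 ± 0.47, 0.0571) and Bub1 (1.35, 0.058), with spindle or kinetochore roles. Kif11 was well above background on 2 of 3 celecoxib and 1 of 2 untreated arrays, and its change was 2.87 (adjusted p = 0.037) without untreated replicate 1 and 1.18 without untreated replicate 2. The proliferation marker Mki67 was at 0.21 and the kinase genes Aurka and Aurkb at -0.1 and -1. The mitosis median kept its sign in every fit run, from 0.38 with normexp to 0.75 with the value table, where the median of all genes was itself 0.32, and the number of members that passed ran from 0 to 6. Without celecoxib replicates 1, 2 and 3 adjusted p in limma was 0.0908, 0.042 and 0.0701 for Ttk, and 0.0645, 0.0701 and 0.0838 for Ube2c. Without untreated replicate 1 the changes were 1.32 for Ttk and 1.26 for Ube2c.

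Of 39 tested DNA replication genes 20 read above 0, with a median of 0.13, and the difference from the mitosis list was not tested. Rrm1, the large subunit of ribonucleotide reductase, fell by 1.26 on its brightest probe (adjusted p = 0.0329, limma), while its other probes read 0.57 and 0.27 higher. It no longer passed without untreated replicate 1 (adjusted p = 0.0597) or without any 1 celecoxib array (0.104, 0.0587 and 0.0641). The probe chosen was the one with the highest mean level, which read -2.99, -2.59 and -2.5 with celecoxib, against -1.67 and -1.19 untreated. The partner subunit Rrm2 was at 1.08 ± 0.25 (adjusted p = 0.0569). The Rrm1 probes are set out because their disagreement limits the call.
Rrm1, brightest probe (chr1:160014147-160015087): aaacaaagaaagtgttcagtgacgtgatgg
Rrm1, second probe (chr1:160017921-160017980): cattggaattggggtacaaggtctagcaga
Rrm1, further probe (chr1:160015113-160016831): cagctcaacactcgagattgttatggccca

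Cdc7, a kinase that starts replication origins, fell. It read -3.84, -3.23 and -3.47 with celecoxib, against 0.21 and -1.55 untreated, a change of -2.85 ± 0.46 (adjusted p = 0.0206, limma). Cdc7 did not pass without celecoxib replicate 1 or 3 (adjusted p = 0.0693 and 0.0539, limma). Its change was -1.96 without untreated replicate 1 and -3.73 without untreated replicate 2.

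Utp25, a nucleolar protein of ribosome assembly, read 0.3, 0.45 and -0.11 with celecoxib, against -1.5 and -2.1 untreated, and rose by 2.01 ± 0.33 (adjusted p = 0.0213, limma). Rrs1, a ribosome assembly factor, rose by 1.73 ± 0.35 and Psmc6, an ATPase subunit of the proteasome, by 1.67 ± 0.33. Psmc6 was saturated on 2 of 3 celecoxib arrays, where its level is a lower bound. It was 1 of 30 proteasome subunit genes to pass, where 1.8% of all genes passed, and 22 of the 30 read above 0 with a median of 0.22.

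Ribosomal protein genes gave no call, where 1.8% of all genes were called. Of 62 tested, 58 read above 0 with a median of 0.34. Of these, 34 were saturated on at least 1 of the 5 arrays, and 20 on all 5. Probes saturated on all 5 arrays (1858) had a median level of 2.72, 2.66 and 2.71 with celecoxib, against 2.31 and 2.46 untreated, so the ceiling of the scale itself differed between the arrays. With quantile normalisation 43 read above 0 and the median was 0.13.

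The remaining rises named by size were Ppp4r3a, a regulatory subunit of protein phosphatase 4 (2.02 ± 0.34), Spg11, a protein of lysosome recycling (1.54 ± 0.30), Atad2, a chromatin ATPase (1.86 ± 0.37), Rgs4, a regulator of G protein signalling (1.60 ± 0.28), and Hey2, a repressor downstream of Notch that acts in ventricular muscle (1.60 ± 0.33). For Atad2, Rgs4 and Hey2 a further probe read lower with celecoxib, by 0.44, 0.52 and 0.44. For Hey2 the probes were as follows.
Hey2, brightest probe (chr1:27518013-27518072): taaacattatgcaaagttatactcataaat
Hey2, second probe (chr1:27516726-27516785): gtctgcagcctccagtcctcagcagacaag

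On the first the level was 0.17, -0.63 and -0.28 with celecoxib, against -2.21 and -1.48 untreated. On the second it was -1.3, -1.54 and -1.35, against -0.97 and -0.93 for untreated, so the direction for Hey2 depends on the probe.

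Bbc3, which encodes the death-promoting BCL2 family protein PUMA, read 1.34, 0.77 and 0.89 with celecoxib, against -1.06 and 0.02 untreated. It rose by 1.52 ± 0.33 (adjusted p = 0.0477, limma), or 0.98 without untreated replicate 1. It did not pass without celecoxib replicate 1, 2 or 3 (adjusted p = 0.14, 0.068 and 0.0982, limma). It was the single call among 25 tested p53 targets and cell cycle inhibitors, of which 14 read above 0, where 1.8% of all genes were called. Aldh1a2, which makes retinoic acid and marks the epicardium, rose by 1.28 ± 0.26 (adjusted p = 0.0381), or 1.11 without untreated replicate 1. It did not pass without celecoxib replicate 1, 2 or 3 (adjusted p = 0.113, 0.06 and 0.0997, limma). The other 9 epicardial markers tested were not called.

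**Figure D3:**
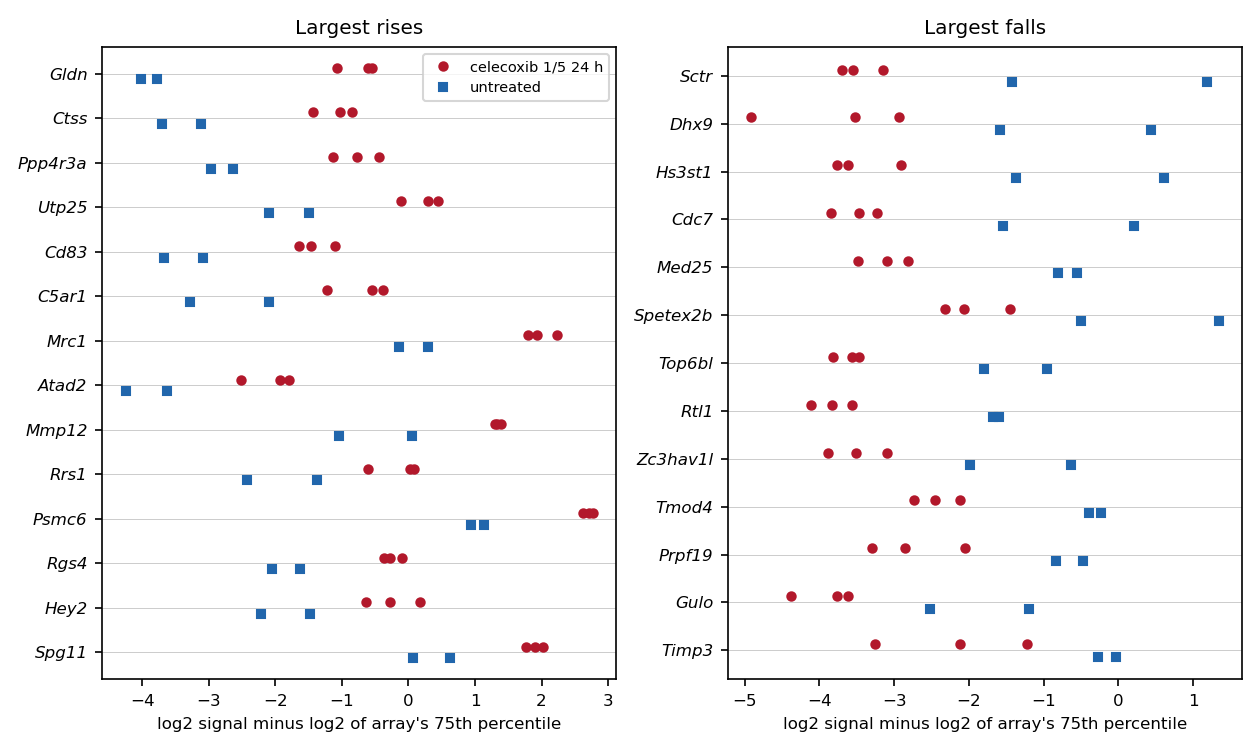
Levels (log2 signal minus log2 of the array's 75th percentile) on each array for the named genes with the biggest change, 14 that rose and, beside them, those that fell, all measured above background on the 5 arrays. Celecoxib 1/5 for 24 h is in red circles and untreated in blue squares. Rises and falls alike were chosen so that all celecoxib points lie beyond both untreated ones, so the lack of overlap is not a result. In Sctr, Dhx9, Hs3st1, Cdc7 and Spetex2b the untreated squares lie far apart.

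Neurog2, a neural transcription factor gene, Med25, a subunit of the Mediator complex, and Tmod4, an actin-capping protein of skeletal muscle, were among the falls that passed without each array in turn. Neurog2 read -3.92, -4.5 and -3.73 with celecoxib, against -1.75 and -1.43 untreated, with a change of -2.46 ± 0.30 (adjusted p = 0.00861, limma), and 2 of 3 celecoxib arrays were well above background. Med25 read -3.48, -3.09 and -2.81 with celecoxib, against -0.56 and -0.81 untreated, with a change of -2.45 ± 0.24 (adjusted p = 0.00295). Tmod4 read -2.45, -2.74 and -2.12 with celecoxib, against -0.4 and -0.23 untreated, with a change of -2.13 ± 0.28 (adjusted p = 0.009).

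Hs3st1 encodes an enzyme that adds the sulfate of heparan sulfate needed for antithrombin binding. It read -2.91, -3.77 and -3.62 with celecoxib, against 0.61 and -1.37 untreated, a change of -3.06 ± 0.47 (adjusted p = 0.0187, limma). Without untreated replicate 1 the change was -2.07 and without replicate 2 it was -4.04. Sctr, the secretin receptor, read -3.55, -3.7 and -3.15 with celecoxib, against 1.18 and -1.43 untreated, a change of -3.34 ± 0.61 (adjusted p = 0.029). Without untreated replicate 1 it was -2.03. Sctr did not pass without celecoxib replicate 1, 2 or 3 (adjusted p = 0.0835, 0.06 and 0.0594, limma). Dhx9, an RNA helicase, read -4.91, -2.94 and -3.53 with celecoxib, against -1.58 and 0.44 untreated, a change of -3.22 ± 0.62 (adjusted p = 0.0329). Its other probe gave -0.35.

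Other large falls were Top6bl, a protein of meiotic recombination (-2.23 ± 0.43), Rtl1, a gene derived from a retrotransposon (-2.19 ± 0.39), Prpf19, a splicing factor (-2.08 ± 0.36), Gulo, the last enzyme of vitamin C synthesis in rats (-2.07 ± 0.41), Spetex2b (-2.37 ± 0.48) and Zc3hav1l (-2.19 ± 0.40). Of the 28 genes named by size, 7, 17 and 7 passed without celecoxib replicates 1, 2 and 3, and 9 and 25 without untreated replicates 1 and 2. Some falls are bounds, since no celecoxib array was well above background. Aadacl4fm2 was at least 14.7-fold lower, with 1 celecoxib array left out as an outlier spot. The olfactory receptor gene Or52e7 was at least 9.0-fold lower, and Olr1451 at least 7.92-fold lower. Aadacl4fm2, Or52e7 and Olr1451 were kept for testing only because both untreated arrays put them well above background. A fall is thus partly built in by the filter.

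Other falls came from the gene lists. Slc7a5, a large amino acid transporter and target of ATF4, read -0.37, -0.22 and -0.45 with celecoxib, against 2.04 and 0.99 untreated, a change of -1.86 ± 0.35 (adjusted p = 0.0311, limma). It was the single call of 24 tested genes of the integrated stress response, of which 10 read above 0. Over all genes 1.8% were called. Vegfa, the growth factor of vessels, read -1.81, -1.11 and -1.53 with celecoxib, against -0.37 and 0.38 untreated, a change of -1.48 ± 0.31 (adjusted p = 0.0413). Timp3, an inhibitor of matrix proteases, changed by -2.05 ± 0.45 (adjusted p = 0.0489). Its celecoxib values of -3.26, -2.12 and -1.23 differed more among themselves than its untreated values of -0.28 and -0.03. Erythroid Ahsp, which stabilises alpha globin, changed by -1.55 ± 0.28, and the carbonic anhydrase gene Car1 by -1.43 ± 0.28, with adjusted p of 0.0288 and 0.0359. Pkp1, a desmosome plaque protein, changed by -2.82 ± 0.44 and Slit1, an axon guidance ligand, by -2.09 ± 0.39, with adjusted p of 0.0187 and 0.0305. Pkp1 was well above background on 2 of 3 celecoxib arrays. None of these genes passed without celecoxib replicate 1. Without celecoxib replicate 3 only Timp3 passed, and without celecoxib replicate 2 Slc7a5, Timp3 and Car1 did not. Without untreated replicate 1 the changes were -1.33 for Slc7a5, -1.86 for Vegfa, -2.18 for Timp3 and -2.03 for Ahsp. They were -1.02 for Car1, -1.99 for Pkp1 and -1.62 for Slit1.

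The gene of the drug's target was not called. Ptgs2 read -3.77, -4.14 and -4.2 with celecoxib, against -3.87 and -2.39 untreated, and the groups overlapped. It was dim, and well above background on 2 of 3 celecoxib arrays and on both untreated arrays. The change was -0.91 ± 0.41 (adjusted p = 0.216, limma), -1.65 without untreated replicate 1 and -0.17 without untreated replicate 2. Ptgs1, the constitutive cyclo-oxygenase, was at -0.07 ± 0.24 (0.28 without untreated replicate 2), the prostaglandin E synthase gene Ptges at 0.05 ± 0.30 (-0.29 without that array) and the prostacyclin synthase gene Ptgis at -0.37 ± 0.30. Of 16 tested prostanoid enzymes and receptors, 6 read above 0, the median was -0.07 and none passed, where 1.8% of all genes did.

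Calls among cardiac muscle genes were few, as they were over all genes, of which 1.8% were called. Of 25 tested sarcomere genes none passed, 15 read above 0 and the median was 0.1. Myh6, the alpha myosin heavy chain, read 2.74, 2.42 and 2.25 with celecoxib, against 0.49 and 1.22 untreated, without passing (1.61 ± 0.50, adjusted p = 0.107, limma), and Myh7 was at 1.08 ± 0.46 (0.196). Of 16 natriuretic peptide and hypertrophy genes, Ankrd2, a stretch-responsive protein, passed (-1.42 ± 0.31, adjusted p = 0.0469). It did not pass without celecoxib replicate 1, 2 or 3 (adjusted p = 0.11, 0.0895 and 0.101, limma). Its change was -1.17 without untreated replicate 1. None of 30 calcium handling and channel genes passed, with 15 above 0 and a median of -0.02.

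Marker lists of other cell types are given by their summed signal, which was not tested. The summed signal of fibroblast markers was 40.7 to 42.4 with celecoxib, against 33.2 to 34.6 untreated, and that of cardiomyocyte markers 53.3 to 59, against 40.7 to 41.7. Both sums lean on bright probes, whose ceiling differed as given above, and their part in the results was not tested. Erythroid markers summed to 3.45 to 4.79 with celecoxib, against 5.33 to 5.43 untreated. Endothelial markers summed to 8.95 to 10.1 with celecoxib, against 9.04 to 9.44 untreated, so these ranges overlapped. Of the 13 tested, 3 read above 0, with a median of -0.39 and none called. That median was -0.17 without untreated replicate 1 and -0.98 without untreated replicate 2.

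Lists with no member called included cytokines and chemokines (23 tested, median 0.16), interferon-stimulated genes (26, 0.07), NRF2 targets (27, -0.09), cytosolic heat shock genes (23, 0.21), endoplasmic reticulum chaperones (22, 0.21), cholesterol synthesis (27, 0.02), fatty acid oxidation (30, -0.27) and the respiratory chain (39, 0.2). Over all genes 1.8% were called, so a list of this size with no call is not shown to be unchanged. Clock genes had a median of -0.4, with 4 of 15 above 0 and none called. Dropping untreated replicate 1 gave a median of -0.02, dropping untreated replicate 2 gave -0.71, and it was 0.02 with quantile normalisation.

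Whether 1/5 differed from the other concentrations at 24 h was tested in the same fit. Against concentration 1, 0 of 25728 genes were called (0%) by limma, with 2453 at an unadjusted p below 0.05, and against 1/25, 0 of 25729 (0%), with 1759. The median standard error of a difference was 0.29 in both, so changes near 1 on the log2 scale can be missed. In simulated data for the comparison with untreated, 0% of changes of 1, 69.5% of changes of 2 and 92% of changes of 3 were recovered.

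Gldn differed from concentration 1 by -0.12 (95% interval -0.68 to 0.44) and from 1/25 by -0.02 (-0.58 to 0.54). Timp3 differed from concentration 1 by -2.29 (-3.18 to -1.41), with adjusted p = 0.151 in limma, with levels of -3.26, -2.12 and -1.23 at 1/5, against -0.04, 0.27 and 0.04 at concentration 1. Psmc6 differed by 1.68 (1.03 to 2.33), Slc7a5 by -1.47 (-2.16 to -0.78) and Aldh1a2 by 1.26 (0.75 to 1.77), with adjusted p of 0.151, 0.224 and 0.167. Aldh1a2 also differed from 1/25, by 1.21 (0.7 to 1.73, adjusted p = 0.481). These intervals are not adjusted for the number of genes, and the 4 after Gldn were picked with their values known, not as the largest. Other named genes also differed from concentration 1, such as Utp25 by 1.67, Ppp4r3a by 1.59 and Zc3hav1l by -1.48. Their adjusted p was 0.151, 0.178 and 0.313 in limma, so none passed. At concentration 1 their changes against untreated were 0.34, 0.42 and -0.71. The comparisons of the 24 h groups with untreated share the same untreated arrays. Beside each other, the changes at 1/25, 1/5 and 1 were 3.16, 3.14 and 3.26 for Gldn, 2.4, 1.98 and 2.2 for Cd83, and -2.92, -3.06 and -3.33 for Hs3st1.

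**Figure D4:**
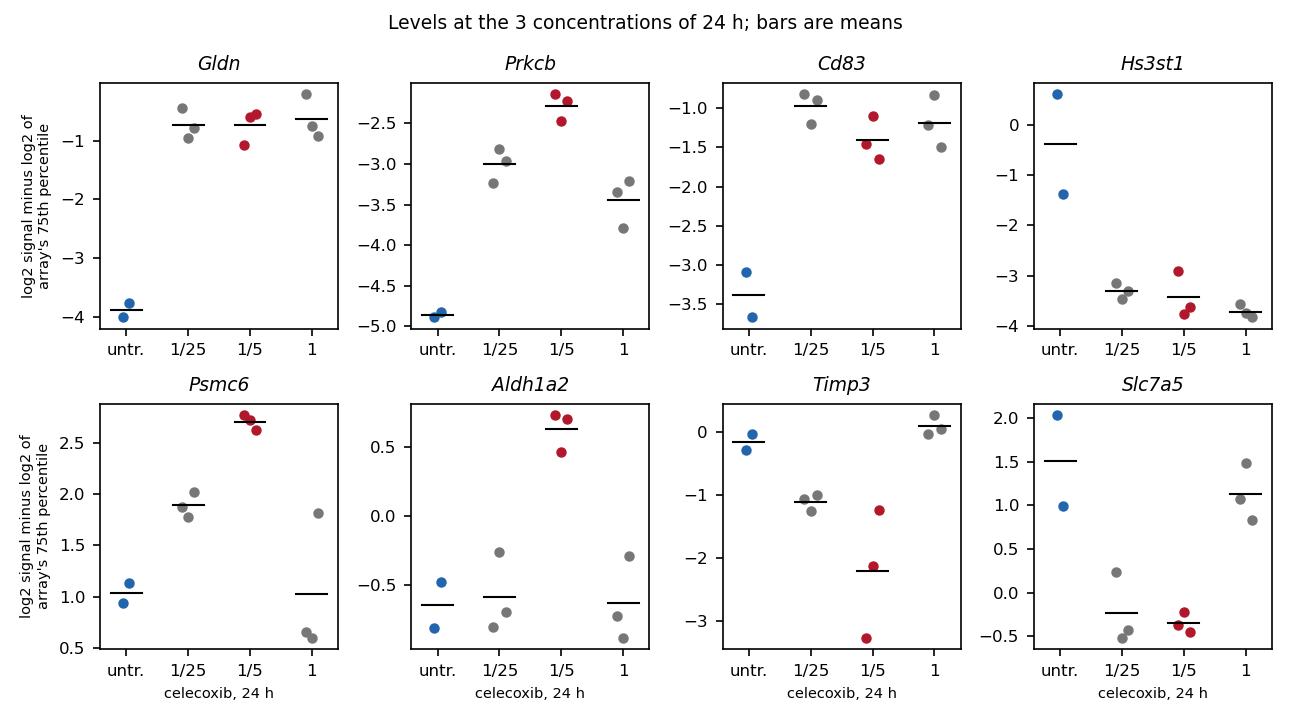
Levels of 8 genes on each array (log2 signal minus log2 of the array's 75th percentile) for untreated, then celecoxib 1/25, 1/5 and 1 for 24 h, with the mean as a bar. Gldn, Cd83 and Hs3st1 sit at like levels at all 3 concentrations, while Aldh1a2 is higher at 1/5 than at 1/25 or 1, and Timp3 lower.

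**Figure D5:**
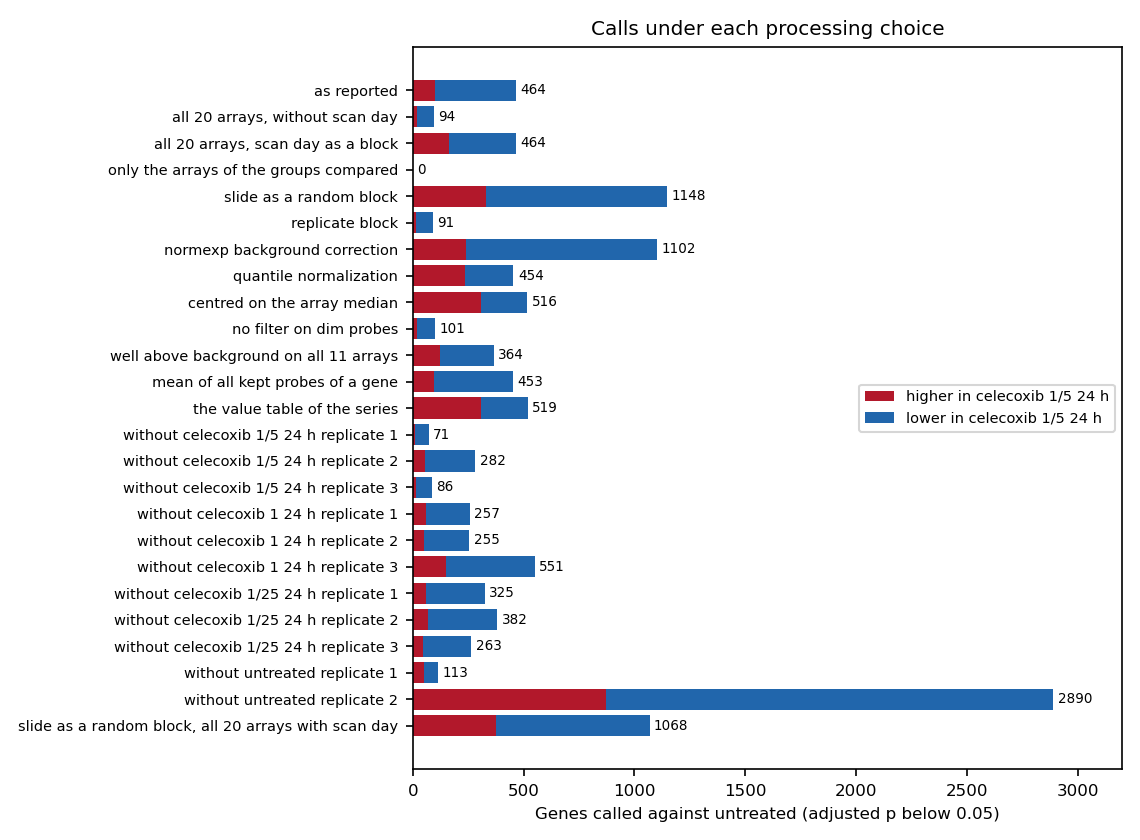
Number of genes called against untreated under each processing choice, higher in red and lower in blue. The count is 464 in the fit reported here, 0 with the 5 arrays alone and 2890 without untreated replicate 2.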

How the data were processed

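RNA was hybridised to single-colour Agilent arrays of 41012 probes. Per the file headers, the deposited scanner files hold fluorescence intensity per spot and were made by the authors with Feature Extraction 9.5.3.1; the flags for well above background, saturation and outliers are in the same deposited files. The deposited value table is a linear ratio to untreated, made by the authors; its log2 was an alternative.

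Levels are log2 of the processed signal minus log2 of the 75th percentile of the array; outlier spots were left out and spots of a probe averaged. A probe was kept (29276 were) if, in 1 or more of 4 groups, all arrays put it well above background, and the brightest stood for a gene (25730). Names came from RefSeq (GRCr8): 10735 probes by accession, 9300 by symbol or synonym, 59 by another accession, and 20918 kept the file's name. limma 3.58.1 (R 4.3.3; statmod 1.5.0 for the slide block) fitted 4 group means to the 11 arrays of untreated and 24 h, all of 1 scan day, with 7 residual degrees of freedom (10.8 after moderation). The 6 h arrays, some scanned on another day, were left out of this fit. Tests were two-sided, adjusted over all genes. Genes were named by size, by list and by role (some genes, 1 of the 28 named by size among them, are counted in their groups but not reported here), and the members and lists were chosen with earlier results of these data known. Simulated data with 200 changed genes were used to test the scripts. The files were read with the R packages jsonlite 2.0.0 and data.table (version 1.17.8). Same-numbered arrays of celecoxib 1/5 and untreated had deviations correlated at -0.182 and -0.224. With 2 untreated arrays the deviations are mirror images, so these correlations cannot show whether numbers mark pairs. The labels tie no number to a shared animal, and numbers were not treated as pairs.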

Additional observations from a re-analysis of the deposited data

Results flagged for a closer look

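Pdk1, a kinase that restrains pyruvate dehydrogenase, lay on opposite sides of both untreated arrays at different concentrations. It read -3.35, -2.79 and -2.51 with celecoxib 1/5 for 24 h, against -1.27, -1.69 and -1.2 at concentration 1, -1.43, -1.63 and -1.47 at 1/25, and -1.72 and -2.25 untreated. The difference of 1/5 from concentration 1 was -1.5 and from 1/25 was -1.37, with adjusted p of 0.151 and 0.481 in limma, so neither passed. The change against untreated was -0.9 ± 0.29 (adjusted p = 0.118).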

How the results depend on the processing

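The number of genes called against untreated (464) was 94 with all 20 arrays and no term for scan day, and again 464 with scan day as a block, of which 294 were shared. With only the 5 arrays it was 0, with 4576 at an unadjusted p below 0.05 in limma. Slide as a random block gave 1148, or 1068 with all 20 arrays and scan day (added after seeing the data), and normexp background correction 1102. No filter on dim probes gave 101. Keeping only probes well above background on all 11 arrays gave 364 calls, 123 higher and 241 lower (66.2% lower). The replicate block gave 91, and no label says whether arrays of the same number belong together. Leaving out 1 array of the 2 groups gave 71 to 2890, and leaving out an array of the other 24 h groups (added after seeing the data) gave 255 to 551. Calls that were lower made up 78.4%, 47.8% with quantile normalisation and 40.7% with centring on the array median, which moves the median of all genes to 0.32. All 28 genes named by size kept their direction in all 24 alternatives, and 7 to 28 of them passed except in the fit of 5 arrays, where 0 passed. Against concentration 1 the count of 0 was 1 with all 20 arrays, with only the arrays compared, with the median, with the value table and without some replicates (0 to 1), 2 with quantile normalisation, and 4 with scan day as a block or with slide as a random block on 20 arrays. Against 1/25 it was 0 to 1. The array signal over background limits the dim genes. Over 179 named genes and their alternatives, 3755 values kept direction and side of the threshold, 127 newly passed, 368 no longer passed and 12, of 7 genes, turned direction without passing. With the mean of all kept probes these were Pck2 (-0.33), Col1a1 (-0.14) and Cald1 (-0.58), and with the value table Ednrb (-0.24). Leaving out 1 array gave -1.65 (without untreated replicate 2) to 0.17 (without untreated replicate 1) for Alas2, -0.43 to 0.28 for Ptgs1 and -0.29 to 0.4 for Ptges (untreated replicates 1 and 2 set both ends). Ptgs1 was at 0.24 with the array median and with the value table. Ptges was at 0 with the replicate block, and -0.01 and -0.02 without celecoxib replicates 1 and 3.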

Other observations

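Olfactory receptor genes, chosen after their values were seen, made up 19 of the 364 falls, which is 6.31% of the 301 tested, against 1.42% of all genes, and 0 rose. Of the 301, 199 were well above background on all 3 celecoxib arrays, against 299 on untreated replicate 1 and 258 on untreated replicate 2, so many entered the test through the untreated arrays and a lean towards falls is built into the count. Where all 11 arrays had to be well above background, 5 of 170 were called lower, against 241 of 21199 of all genes. The median level was -2.94, -2.84 and -3.03 on the celecoxib arrays, against -1.74 on untreated replicate 1 and -2.69 on untreated replicate 2. With quantile normalisation 5 of 301 were called lower, against 217 of 25723 of all genes. The count also depended on which untreated array was left out.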
